A study of Mus musculus with 6 samples.

Results

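The genes described here are 35 genes of peroxisome biogenesis and peroxisomal lipid metabolism. The rule takes them by gene symbol: 13 peroxins and 22 genes for the transporters and enzymes of peroxisomal alpha- and beta-oxidation, acyl export, ether lipid synthesis and peroxide removal. The table of normalized counts that was analysed has 35976 gene rows, and all 35 genes had a row in it. RNA was sequenced from primary mouse adipocytes, cells isolated from fat and differentiated in culture, in 3 groups of 2 libraries. All 6 libraries came from the Ppargc1a(fl/fl) genotype, in which the gene for the transcriptional coactivator PGC-1alpha carries loxP sites. The first group received an adenovirus encoding GFP and control siRNA, the second the GFP virus and an siRNA against Rbm43, an RNA-binding protein gene, and the third an adenovirus encoding the Cre recombinase and the Rbm43 siRNA. These groups are called control, knockdown and Cre knockdown cells. Cells with Cre virus and control siRNA are not analysed here, so the effect of Cre could be measured only on top of the Rbm43 siRNA. The fat depot, the age and the sex of the donor mice are not given in the labels. The libraries are labelled as biological duplicates, without saying whether these came from separate animals, so p-values measure the spread between these libraries. The test used, limma, draws the variance of each gene toward that of genes of similar level.

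Peroxisomes are membrane-bound organelles that shorten very-long-chain and branched-chain fatty acids, take the carboxyl carbon off phytanic acid by alpha-oxidation, carry out the first steps of ether lipid synthesis and break down the hydrogen peroxide that their oxidases release. Peroxins, the products of the Pex genes, insert the membrane proteins of the organelle, import its enzymes from the cytosol and divide it. Many of these genes are known targets of the nuclear receptor PPARalpha, and PGC-1alpha is a known partner of PPAR receptors. In fat, peroxisomes are most abundant in brown and cold-stimulated adipocytes.

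Each library held between 15775398 and 21961724 reads in genes, and 1 read was worth between 0.878 and 1.22 normalized counts. Rbm43 stood at normalized counts of 185 and 224 in control cells, 43.7 and 46.6 in knockdown cells, and 53.8 and 32.5 in Cre knockdown cells, so the knockdown showed in all 4 libraries that received the siRNA. Ppargc1a stood at 163 and 202, then 399 and 423, then 463 and 469, and was not lower in the libraries labelled Cre virus. A count over the whole gene does not check a deletion of some of its exons. All 10 adipocyte markers reached a normalized count of 10. Their summed count was 196227 and 214911 with control siRNA, between 277403 and 279831 in knockdown cells, and between 233313 and 235164 in Cre knockdown cells. Most of this sum was the single gene Fabp4, at 137846 and 125493, then 191083 and 190516, then 159622 and 162219. Of 6 hepatocyte markers, Alb, Apoa1, Ttr, Hnf4a and Serpina1a stayed under a normalized count of 10 in every library. The other, Cyp2e1, rose by 3.21 on the log2 scale with Rbm43 siRNA and by 2.90 in Cre knockdown against control cells. It was low and not called by DESeq2, and the 6 markers together summed to between 4.16 and 28.0. In bulk RNA, fewer cells of a type and less RNA per cell cannot be told apart.

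Per kilobase of exon, the 35 genes spanned from a mean over the 6 libraries of 17.8 normalized counts for Acot4, an acyl-CoA thioesterase gene, to 3897.5 for Cat, the gene of catalase. After Cat came Scp2, which encodes sterol carrier protein and a thiolase of branched-chain substrates, at 3598, Ech1, a dienoyl-CoA isomerase gene, at 1942, and Hsd17b4, the gene of D-bifunctional protein, at 1814.5. The highest peroxin was Pex19, whose product carries newly made membrane proteins to the organelle, at 1299.9. At the low end, Pex10, Pex7 and Pex26 had means of 35.1, 35.4 and 36.1, and their 6 libraries overlapped, so their order is not resolved. Cat lay between 3568 and 4253 and Scp2 between 3246 and 4002, and these ranges overlapped too, but within every library Cat stood above Scp2. Ech1 stood above Hsd17b4 in the control libraries, at 2121 and 2089 against 1704 and 1644.5. In the Cre knockdown libraries it stood below, at 1590 and 1619 against 1625 and 1661.5, so the order of Ech1 and Hsd17b4 is not resolved.

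**Figure D1:**
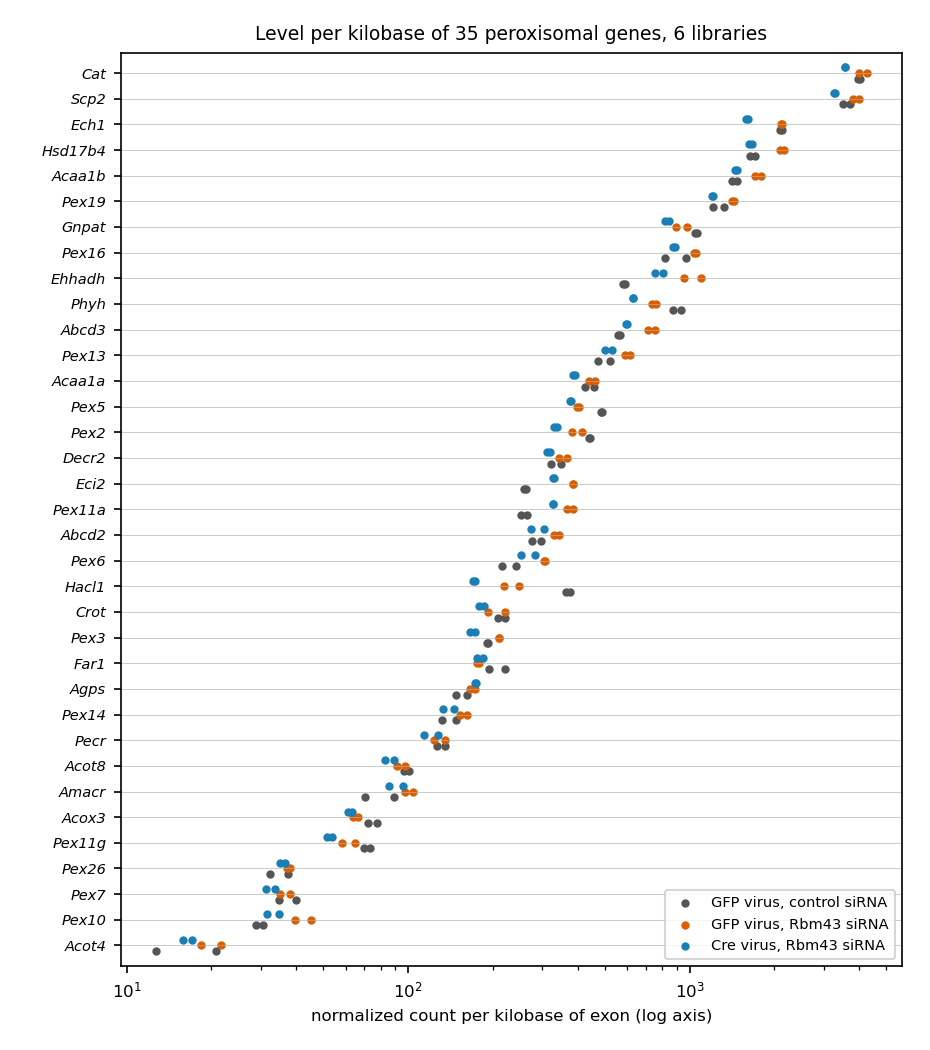
Normalized count per kilobase of exon (horizontal log axis) for each of the 35 genes, with 1 point per library coloured by group. Cat and Scp2 are at the top, at means of 3897.5 and 3598, and Acot4 is at the bottom, at 17.8, while the spread of each gene over the libraries is small beside the spread between genes.

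Gene spans are given on GRCm38 from GENCODE M21. Ehhadh lies at chr16:21761287-21787807, minus strand, Eci2 at chr13:34977748-35027096, minus strand, Hacl1 at chr14:31598730-31641286, minus strand, Ech1 at chr7:28825217-28832247, plus strand, and Pex5 at chr6:124396816-124415067, minus strand. Pex11a lies at chr7:79735957-79743131, minus strand, 3053 bases from Plin1, the perilipin gene of the adipocyte list, which rose by 0.34 on the log2 scale with Rbm43 siRNA and fell by 0.22 with Cre virus. Replicates lay close together for most members. The median coefficient of variation over the 35 genes was 4.31% with control siRNA, 3.42% in knockdown cells, and 2.1% in Cre knockdown cells. The widest pair was Acot4 with control siRNA, at 138 and 85.2, a coefficient of variation of 33.6%. Some members share sequence with other loci, and reads could be split between them where both had a row among the normalized counts. Of the 100-base windows in the transcripts of Hacl1, 23.9% also occur in the overlapping locus Gm49387. The share was 21.8% for Scp2, with its pseudogene Scp2-ps2, 19.3% for Acaa1b and 7.21% for Acaa1a, with each other, and 4.92% or less for Gnpat, Eci2 and Acot4. The other 28 members shared no window. Gm49387, Scp2-ps2 and Gm16163, the locus that shares windows with Gnpat, had no row among the normalized counts. The strand setting of the read counting is not given in the sources used here, and 17 members overlap exons of a gene on the opposite strand, among them Pex14 (1776 bases, Gm17029) and Pex11g (1396 bases, Gm44775), whose counts could include reads of that partner.

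RefSeq promoter windows, from 250 bases before to 50 bases after the start site on GRCm38.p6, were found for 30 of the 35 genes. They were searched on both strands for 4 motifs. The direct repeat of AGGNCA with 1 base of any kind between the copies, a form of the site bound by PPAR receptors with RXR, occurred in 0 of 30 members and in 0.265% of the 10569 tested genes with a window. The extended site TCAAGGTCA of the estrogen-related receptors also occurred in 0 of 30 members, against 0.331% of tested genes. With shares this low, 0 of 30 was the likely count for either motif, and sequence outside the windows was not searched. These counts therefore cannot decide whether the members have such sites. The GC box GGGCGG occurred in 24 of 30 members, or 80%, against 67.5% of tested genes and 35.7% of all 32851 windows. The NRF1 motif, GCGCA followed by any base and GCGC, known from promoters of mitochondrial genes, occurred in 3 of 30 members, or 10%, against 11.1% of tested genes and 4.6% of windows. These 3 matches are shown because they stand near the start sites of 1 transporter and 2 peroxin genes with measured values here. Each is printed 5′ to 3′ on the strand of its gene with 8 flanking bases, and capitals mark the match. The match of Abcd3, a gene on the minus strand, lies at chr3:121815345-121815370, centred 55 bases before the start site. Its motif is on the strand opposite to the gene, so the printed letters show the reverse complement, GCGC, any base and TGCGC. The match of Pex10, a gene on the plus strand, lies at chr4:155067027-155067052, centred 10 bases after the start site, with the motif on the strand of the gene. The match of Pex11g, a gene on the minus strand, lies at chr8:3467687-3467712, centred 51 bases before the start site, and again shows the reverse complement. A match describes the letters and is no evidence of binding.
Abcd3: gggggtccGCGCGTGCGCagagcgtc
Pex10: cacgaggtGCGCAGGCGCggtgcgag
Pex11g: aggcagttGCGCCTGCGCggaccttc

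The first comparison asked what the Rbm43 siRNA changed in cells with the GFP virus. Of the 35 genes, 13 rose, 6 fell and 16 did not pass an adjusted p of 0.05 (limma on log2 of the normalized count plus 1, Benjamini-Hochberg over the 14211 genes that reached 10 in 2 or more libraries). Over all genes tested, 23.2% were called, 13.5% as rising and 9.76% as falling, and 54.3% of the 35 genes were called. The genes that rose included the bifunctional enzyme genes Ehhadh and Hsd17b4, the isomerase gene Eci2, the acyl-CoA transporter genes Abcd2 and Abcd3 and 6 peroxins. The genes that fell were both alpha-oxidation enzymes, Phyh and Hacl1, the import receptor gene Pex5, the branched-chain oxidase gene Acox3, and 2 of 3 ether lipid genes. The median log2 fold change was 0.11 over the 35 genes and -0.01 over all genes tested. In 17 genes both libraries with Rbm43 siRNA lay above both controls, in 8 below, and in 10 the groups overlapped, where 29.2% of all genes tested lay above and 29.2% below.

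**Figure D2:**
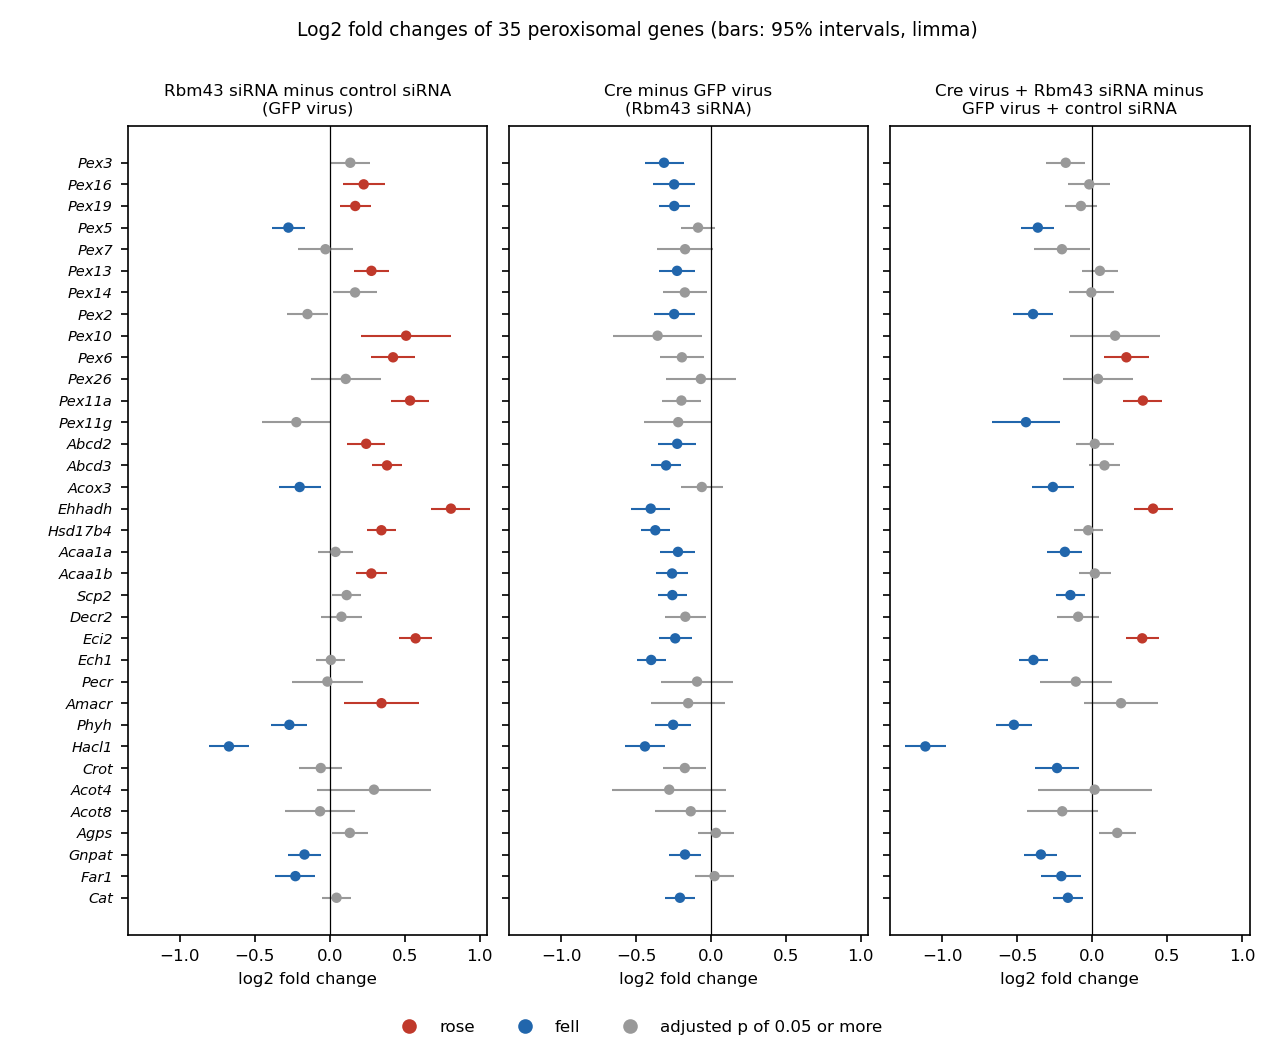
Log2 fold change of each of the 35 genes (horizontal axis) in the 3 comparisons, as points with 95% confidence intervals from limma, in order of role, in red where the gene rose, blue where it fell and grey at an adjusted p of 0.05 or more. The first comparison has 13 red and 6 blue points, the second 18 blue and no red ones.

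Among the peroxins, 6 of 13 rose and 1 fell. Pex11a, whose product elongates the membrane when peroxisomes divide, stood at normalized counts of 845 and 801 in the controls, 1164 and 1222 in knockdown cells, and 1039.5 and 1041 in Cre knockdown cells. The groups did not overlap, and the log2 fold change of Rbm43 siRNA against control siRNA was 0.54 (SE 0.06, adjusted p = 2.79e-06). Pex6, an ATPase that pulls the import receptors back out of the membrane, stood at 914 and 817, then 1156 and 1161, then 1073 and 956. It was higher in both knockdown libraries than in the controls, with a log2 fold change of 0.42 (SE 0.07, adjusted p = 0.000185). Pex13, part of the docking complex for loaded receptors, went from 2200.2 and 2425 to 2745 and 2857 with the siRNA, and stood at 2325 and 2465 with Cre virus. Its log2 fold change was 0.28 (SE 0.06, adjusted p = 0.00124), again without overlap.

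Pex5 encodes the receptor that recognizes the C-terminal targeting signal carried by most peroxisomal enzymes. It was the 1 peroxin that fell, from 1912 and 1919 in the controls to 1571 and 1592 in knockdown cells, and stood at 1499.6 and 1480.0 with Cre virus. The control libraries were the highest, and the log2 fold change was -0.28 (SE 0.05, adjusted p = 0.000712). Pex7, the receptor gene for the N-terminal signal, stood at 421 and 482 in the controls and 423 and 461 with the siRNA, which overlap, with a log2 fold change of -0.03 (95% CI -0.21 to 0.16). Pex16 and Pex19, of membrane protein insertion, rose by 0.23 and 0.17 on the log2 scale, and Pex10, of the ubiquitin ligase that modifies the receptors, by 0.51. Pex16 stood at 1727 and 1453 in control cells against 1843 and 1864, and Pex10 at 101 and 94.9 against 149.5 and 131, so the controls of Pex16 were the wider pair. Pex3, Pex14, Pex2, Pex26 and Pex11g did not pass the test, at 0.14, 0.17, -0.15, 0.11 and -0.22.

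Both peroxisomal fatty acid transporters rose. Abcd3, the carrier of branched-chain and dicarboxylic acyl-CoAs, stood at 3684 and 3738 in the controls, 4699.9 and 4975 in knockdown cells, and 3907 and 3949 in Cre knockdown cells. Its log2 fold change was 0.38 (SE 0.05, adjusted p = 8.27e-06), and the groups did not overlap. Abcd2, the carrier of very-long-chain acyl-CoAs that is abundant in fat, stood at 1637 and 1760.0, then 2051 and 1968, then 1632 and 1809. Its rise was 0.24 (SE 0.06, adjusted p = 0.00625), also without overlap.

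Of the 6 genes of the beta-oxidation cycle itself, 3 rose and 1 fell. Ehhadh, the gene of L-bifunctional protein, which hydrates and dehydrogenates enoyl-CoAs, stood at 1753 and 1736 in the controls, 2847 and 3279.7 in knockdown cells, and 2238 and 2389 in Cre knockdown cells. The 3 groups were fully separated, and the log2 fold change, 0.81 (SE 0.06, adjusted p = 1.82e-08), was the largest of the 35. Hsd17b4, whose product does the same 2 steps on branched-chain and very-long-chain substrates, stood at 5801 and 5598, then 7117 and 7357, then 5531 and 5656. It rose by 0.34 (SE 0.05, adjusted p = 1.75e-05), and only the knockdown libraries stood high. The thiolase gene Acaa1b, whose product cleaves the shortened chain, stood at 2895 and 2775, then 3359.8 and 3514, then 2841 and 2899, and rose by 0.28 (SE 0.05, adjusted p = 0.000405). Its neighbour Acaa1a, 182.58 kb away on chromosome 9, stood at 2014 and 1871 in the controls and 1945 and 2043 with the siRNA, which overlap (log2 fold change 0.04, 95% CI -0.08 to 0.16). Scp2 did not pass the test, at 0.11, and Acox3, the oxidase gene that starts the breakdown of branched chains, fell by 0.20 on the log2 scale, from 895 and 828 to 735 and 762.

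Of 5 auxiliary enzymes, which prepare unsaturated or branched chains for the cycle, 2 rose. Eci2, an enoyl-CoA isomerase gene, stood at 1432 and 1448 in the controls, 2143 and 2143 in knockdown cells, and 1806 and 1826 in Cre knockdown cells. The 3 groups were separated by far more than their spread, and the log2 fold change was 0.57 (SE 0.05, adjusted p = 1.62e-07). Amacr, the racemase gene for methyl-branched acyl-CoAs, rose by 0.35, from 183 and 232 to 254 and 271. Ech1, whose product moves double bonds and is also found in mitochondria, stood at 4845 and 4771 in the controls and 4807 and 4857 with the siRNA, which overlap, with a log2 fold change of 0.01 (95% CI -0.09 to 0.10). The reductase genes Decr2 and Pecr did not pass either, at 0.08 and -0.02.

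The enzymes of alpha-oxidation moved the other way. Hacl1 encodes the lyase that cleaves hydroxyphytanoyl-CoA, and stood at 1866 and 1804 in the controls, 1082 and 1224 in knockdown cells, and 839 and 856 in Cre knockdown cells. The 3 groups did not overlap, and the log2 fold change of the siRNA was -0.67 (SE 0.06, adjusted p = 2.95e-07). Gm49387 had no row among the normalized counts, so how reads from the sequence it shares with Hacl1 were counted cannot be told. Phyh, the gene of phytanoyl-CoA hydroxylase, which acts just before it, stood at 1651 and 1771, then 1395 and 1441, then 1189 and 1191. It fell by 0.27 on the log2 scale (SE 0.06, adjusted p = 0.00179), with the controls highest. Among ether lipid genes, Gnpat, of the first acyltransferase, fell by 0.17. Far1, of the reductase that supplies fatty alcohols, fell by 0.23, from 1568 and 1787 to 1412 and 1443. Agps, of the ether lipid synthase, stood at 1393 and 1524 against 1568 and 1629.6 and did not pass (0.13, adjusted p = 0.111). Cat and the acyl export genes Crot, Acot4 and Acot8 did not pass, at 0.04, -0.06, 0.30 and -0.06.

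**Figure D3:**
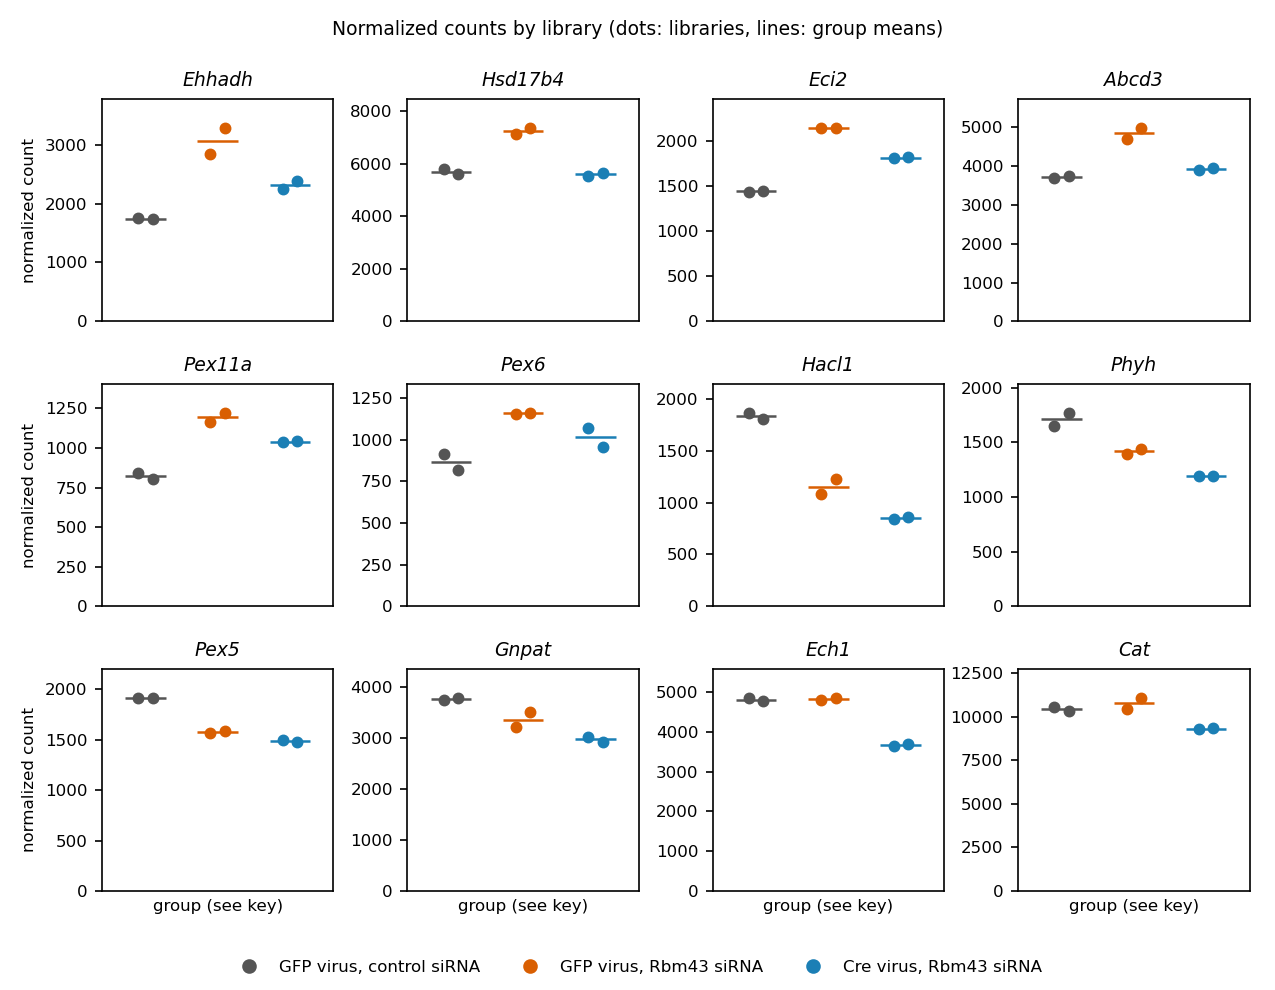
Normalized counts (vertical axes, from 0) of 12 of the 35 genes in the 6 libraries, with 1 point per library and a bar at each group mean. Ehhadh, Eci2 and Pex11a are highest in knockdown cells, while Hacl1 and Phyh step down from control through knockdown to Cre knockdown cells.

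The siRNA calls in 8 of the 19 genes ended when the first knockdown library was left out (Pex16, Pex19, Pex10, Abcd2, Acox3, Amacr, Gnpat and Far1), and the other 11 held with any 1 library left out. Without the second control library the rise of Pex16 went from 0.23 to 0.10, that of Pex19 from 0.17 to 0.11 and the fall of Far1 from -0.23 to -0.14, without the first control library the rise of Pex16 was 0.35 and that of Amacr went from 0.35 to 0.17, and without the first knockdown library the fall of Gnpat went from -0.17 to -0.10. Adipocyte markers moved as well: 7 of 10 rose and 1, Cfd, fell, and 3 of 9 tested markers of preadipocytes and fibroblasts fell. The mural cell list had 3 of 6 genes higher, and its summed count was between 51600 and 57010 in the controls and between 59042 and 61721 with the siRNA. The macrophage list had 3 of 9 tested genes lower, with summed counts of 1791 to 1806 and 1565 to 1810, Cd163 staying under 10. The part of these markers in the results was not tested.

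The second comparison set Cre virus against GFP virus, both with Rbm43 siRNA. It shares the 2 knockdown libraries with the first comparison, where they are the other arm, so the signs of the 2 comparisons are not independent. Of the 35 genes, 0 rose, 18 fell and 17 did not pass the test, against 2.62% rising and 5.88% falling among all genes tested (8.5% called in all, and 51.4% of the 35 genes). At an unadjusted p under 0.05 limma also had 0 rises, with 24 falls. At an adjusted p under 0.05 edgeR had 0 rises and 19 falls, and DESeq2 had 0 rises and 16 falls. The median log2 fold change was -0.22, against 0.00 over all genes tested, and 33 of the 35 values were negative. In 32 genes both Cre libraries lay below both GFP libraries, where 27.5% of all genes tested did so, and in 0 genes above, where 26.2% did.

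Among the peroxins, 5 of 13 fell. All 3 genes of membrane protein insertion were among them. Pex3, the membrane anchor on which Pex19 docks, stood at 913 and 902 in the controls, 996 and 999.96 in knockdown cells, and 821 and 785 in Cre knockdown cells. The Cre libraries were the lowest, and the log2 fold change of Cre against GFP was -0.31 (SE 0.06, adjusted p = 0.00282). Pex19 stood at 5052 and 4633, then 5491 and 5394, then 4578 and 4607, and fell by 0.25 on the log2 scale (SE 0.05, adjusted p = 0.00345). Pex16 fell by 0.25, the docking gene Pex13 by 0.23 and the ubiquitin ligase gene Pex2 by 0.25. Pex2 stood at 1006 and 994, then 865 and 940.3, then 770.3 and 751, lowest in the Cre libraries. Pex11a missed the threshold, at -0.20 (adjusted p = 0.0545), and the import receptor genes Pex5 and Pex7 did not pass, at -0.09 and -0.17.

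Both transporters fell, Abcd3 by 0.30 (SE 0.05, adjusted p = 0.000471) and Abcd2 by 0.23. In the beta-oxidation cycle 5 of 6 genes fell. Ehhadh fell by 0.40 (SE 0.06, adjusted p = 0.000309) but its Cre libraries stayed above the control siRNA libraries. Hsd17b4 fell by 0.37 (SE 0.05, adjusted p = 4.29e-05) and its Cre libraries overlapped with the control libraries. Scp2 stood at 12247 and 12906 in the controls, 13273 and 13918 in knockdown cells, and 11447 and 11291 in Cre knockdown cells, and fell by 0.26 (SE 0.05, adjusted p = 0.00143). Acaa1b fell by 0.26 (SE 0.05, adjusted p = 0.00232) and Acaa1a by 0.22, and Acox3 did not pass, at -0.06.

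Ech1 had the smallest p of the 35 genes here. It stood at 4845 and 4771 in control cells, 4807 and 4857 in knockdown cells, and 3631 and 3697 in Cre knockdown cells, a log2 fold change of -0.40 (SE 0.05, adjusted p = 2.17e-05). Eci2 fell by 0.24 (SE 0.05, adjusted p = 0.0058). Hacl1 fell by 0.44 (SE 0.06, adjusted p = 0.000193) and Phyh by 0.25 (SE 0.06, adjusted p = 0.00795), so both alpha-oxidation genes were lower with Cre virus on top of the siRNA. Cat stood at 10558 and 10326, then 10441 and 11114, then 9322 and 9343, and fell by 0.21 (SE 0.05, adjusted p = 0.00741). Of the ether lipid genes, Gnpat fell by 0.17, and Agps and Far1 did not pass, at 0.03 and 0.02, the 2 positive values of this comparison.

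Of the 18 calls, 5 held with any 1 library left out (Abcd3, Ehhadh, Hsd17b4, Ech1 and Hacl1); 10 ended without the second knockdown library, which took the fall of Gnpat from -0.17 to -0.11, 12 without the first Cre library, 13 without the second, and Pex16 and Abcd2 also without the first knockdown library. Without the trend of variance with level, limma called 0 of the 35 genes, and 19 at an unadjusted p under 0.05, while edgeR called 19 and DESeq2 16. Here 7 of 10 adipocyte markers fell, 5 of 6 mural markers rose, with summed counts of 70738 to 74099 in the Cre libraries, and 0 of 9 tested macrophage and 0 of 9 tested preadipocyte markers were called by limma, edgeR or DESeq2, 2 of each list having an unadjusted p under 0.05. The part of these markers in the results was not tested.

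The third comparison set Cre knockdown cells against control cells, so virus and siRNA both differ, and it shares libraries with each of the others. Of the 35 genes, 4 rose, 13 fell and 18 did not pass, against 8.47% rising and 6.28% falling among all genes tested (14.7% called in all, and 48.6% of the 35 genes). The 4 that rose were Pex11a, at 0.34 (SE 0.06, adjusted p = 0.00077), Ehhadh, at 0.41 (SE 0.06, adjusted p = 0.000126), Eci2, at 0.33 (SE 0.05, adjusted p = 0.000161), and Pex6, at 0.23 (SE 0.07, adjusted p = 0.0353). The median log2 fold change was -0.09, against 0.00 over all genes tested. In 7 genes the Cre libraries lay above both controls and in 18 below, against 27.4% and 27.2% of all genes tested.

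The largest fall was that of Hacl1, by 1.11 on the log2 scale (SE 0.06, 95% CI -1.25 to -0.98, adjusted p = 1.01e-09), and Phyh fell by 0.52 (SE 0.06, adjusted p = 3.8e-06). The summed count of the pair was 3517 and 3575 in the controls, 2477 and 2665 in knockdown cells, and 2028 and 2047 in Cre knockdown cells, without overlap between any groups. Ech1 fell by 0.39 (SE 0.05, adjusted p = 8.57e-06), Pex5 by 0.36 (SE 0.05, adjusted p = 7.95e-05) and Pex2 by 0.39 (SE 0.06, adjusted p = 0.000278). Gnpat, of ether lipid synthesis, stood at 3756 and 3796, then 3212 and 3513, then 3026 and 2933, and fell by 0.34 (SE 0.05, adjusted p = 0.000129). Pex11g, a second division gene, stood at 249.7 and 236, then 197 and 219, then 175 and 182, and fell by 0.44 (SE 0.11, adjusted p = 0.00866), opposite in sign to its paralog Pex11a, with the opposite-strand overlap given above. Acox3 fell by 0.26 (SE 0.07, adjusted p = 0.0118) and Cat by 0.16 (SE 0.05, adjusted p = 0.0241). Crot, Far1, Acaa1a and Scp2 fell by 0.23, 0.21, 0.18 and 0.15. Genes near 0 included Hsd17b4, at -0.03 (95% CI -0.12 to 0.07), Acaa1b, at 0.02 (95% CI -0.09 to 0.12) and Abcd2, at 0.02 (95% CI -0.11 to 0.14).

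Of the 17 calls, 9 held with any 1 library left out, and the calls of Pex6, Pex11g, Acox3, Acaa1a, Scp2, Crot, Far1 and Cat ended without either Cre library, those of Pex6, Scp2, Crot and Far1 also without the second control library, and that of Acaa1a without the first. Pex6 was 0.15 without the second control library and 0.14 without the first Cre library, against 0.23, and Far1 was -0.11 without the second control library, against -0.21. All 6 mural markers, 3 of 10 adipocyte markers and 1 of 6 endothelial markers were higher here, and 3 adipocyte, 2 preadipocyte and 1 macrophage markers were lower. Over the 3 group means, knockdown cells were the highest in 22 of the 35 genes and the lowest in 1, and Cre knockdown cells were the lowest in 22 and the highest in 1. This order was not counted over all genes tested, so these counts have no background share to be read against.

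The other peroxisomal genes were taken from a list of 53, of which 44 passed the filter. For Rbm43 siRNA, 19 rose and 3 fell (median 0.14), for Cre virus 1 rose and 16 fell (median -0.19), and for both together 4 rose and 10 fell (median -0.05). Over all genes tested, the shares called in the 3 comparisons were 23.2%, 8.5% and 14.7%. The 17 Cre calls became 8 without the second knockdown library, 7 and 6 without the first and the second Cre library, and 0 by limma without the variance trend. The 14 calls of the third comparison became 3 and 5 without the first and the second Cre library. Ddo, the gene of D-aspartate oxidase, stood at 187 and 194 in the controls, 464 and 463 in knockdown cells, and 318 and 307 in Cre knockdown cells. It was fully separated between groups, with log2 fold changes of 1.28 (adjusted p = 6.9e-09), -0.57 (adjusted p = 0.000424) and 0.71 (adjusted p = 1.83e-05) in the 3 comparisons. Nudt7, of a CoA diphosphatase, and Lonp2, of the matrix protease, rose by 0.45 and 0.37 with the siRNA and fell by 0.32 and 0.31 with Cre virus. Hsdl2 and Tmem135 likewise rose by 0.30 and 0.34 and fell by 0.38 and 0.33. Prdx5, of a peroxiredoxin, fell by 0.30 with the siRNA. The 1 gene that rose with Cre virus, Nos2, stood at 605 and 365 in its GFP libraries, a wide pair, and was not called by DESeq2 or without the second knockdown library or either Cre library.

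Mitochondrial beta-oxidation runs in parallel on shorter chains. Of its 18 genes, 15 rose and 0 fell with Rbm43 siRNA (median 0.35), 0 rose and 16 fell with Cre virus (median -0.40), and 2 rose and 5 fell in the third comparison (median -0.10). The counts of 0 were also 0 at an unadjusted p under 0.05 and by edgeR and DESeq2. Acaa2, the mitochondrial thiolase gene, stood at 5487 and 5188, then 9417 and 9287, then 5869 and 5902, and rose by 0.81 (adjusted p = 6.8e-10) and fell by 0.67 (adjusted p = 1.3e-07). Among 12 PPAR receptors and coregulators, 5 rose and 1 fell with the siRNA, 0 rose and 4 fell with Cre virus, and 4 rose and 0 fell in the third. These 0 counts held by edgeR and DESeq2, and at an unadjusted p under 0.05 were 1 and 0. Ppara, the receptor gene itself, stood at 848 and 646, then 1818 and 1918, then 997 and 942, with log2 fold changes of 1.33 (adjusted p = 3.92e-09), -0.95 (adjusted p = 2.31e-06) and 0.39 (adjusted p = 0.00509). Pparg, the main receptor of adipocyte differentiation, rose by 0.64 and fell by 0.37.

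**Figure D4:**
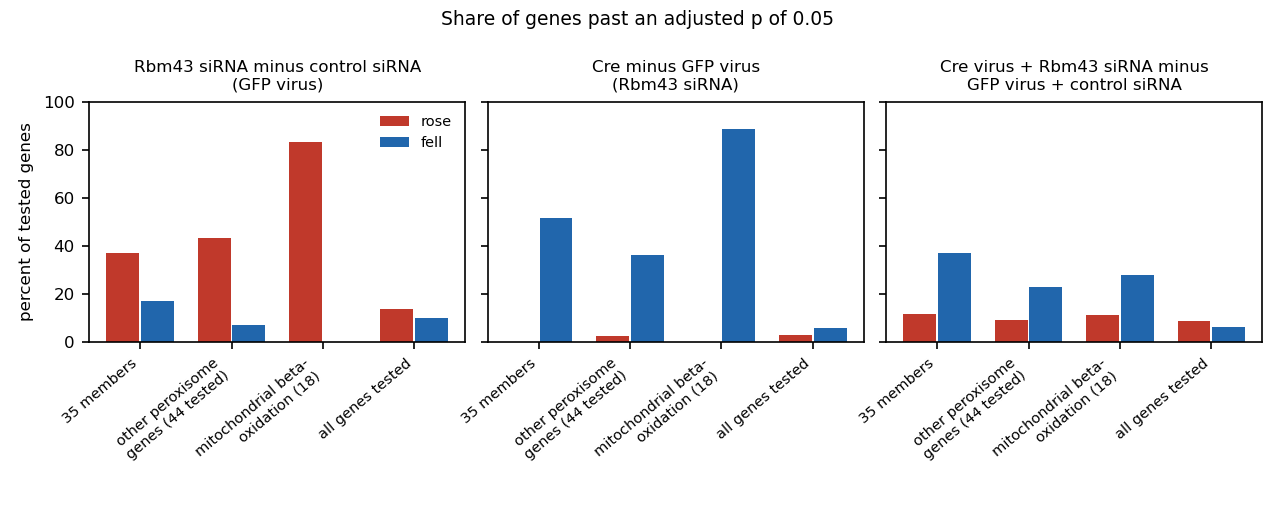
Percent of tested genes that rose or fell past an adjusted p of 0.05 (vertical axis) among the 35 genes, the other peroxisomal genes, mitochondrial beta-oxidation genes and all genes tested, for each comparison. For Cre virus against GFP virus, 51.4% of the 35 genes were called, all as falls, against 8.5% of all genes.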

How the data were processed

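The values deposited by the authors are a normalized signal, in which each library's counts carry a common size factor. The submitters' processing notes list mm10 and, without roles, DESeq2 2.11.40.7, STAR 2.7.8 and fastp 0.23.2. Which counter, annotation and strand setting were used is not given in the sources used here. Whole reads were recovered from the steps between values (100% whole within 0.01 read), and edgeR on them called 3263, 1336 and 2111 genes in the 3 comparisons (Rbm43 siRNA, Cre virus, and both together). Values plus 1 were put on a log2 scale, which understates the change of low genes, and tested in R 4.3.3 by limma 3.58.1 with its variance trend, 1 mean per group, all 6 libraries and 3 residual degrees of freedom, on 14211 genes with at least 10 in at least 2 libraries and a Benjamini-Hochberg threshold of 0.05. All 35 genes passed that filter. edgeR 4.0.16, DESeq2 1.42.0 and other settings, 17 in all, were tried. The scripts were tested on simulated data whose changes were larger than most of those described here, so detection of smaller changes was not tested. Lengths and positions come from GENCODE M21 on GRCm38. The 35 genes and the lists were chosen with earlier results of these data known. The 12 called members with the smallest p per comparison got full statistics; from the other lists, up to 8 peroxisomal genes and up to 4 of each further list with the smallest p were named; 1 further gene is not reported here. Replicates of 1 group differed by more than sampling noise (chi-square per degree of freedom 1.77 to 4.19).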

Additional observations from a re-analysis of the deposited data

How the results depend on the processing

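No called member reversed its direction in any of the 17 settings. Counts of calls moved with limma without the variance trend, DESeq2, the unfiltered table and single libraries left out; the cause was not tested. For Rbm43 siRNA, limma without the trend called 1304 genes, 8 members and 8 other peroxisomal genes, and DESeq2 2035 genes and 14 other peroxisomal genes. For Cre virus, limma without the trend called 0 genes (2355 at an unadjusted p under 0.05; edgeR 1336, DESeq2 838), 0 members and 0 other peroxisomal genes (23 unadjusted; edgeR 19, DESeq2 14); the unfiltered table called 609 genes and 10 other peroxisomal genes, and a fit of the 2 groups alone 2070 genes. Total scaling split the Cre calls into 565 rises and 734 falls, against 372 and 836. It split the siRNA calls into 1678 rises and 1679 falls, and upper-quartile scaling into 1725 and 1593, against 1914 and 1387, so the excess of rises over all genes was not kept under total scaling. For the third comparison, the unfiltered table called 1251 genes and 11 members, limma without the trend 433, 5 and 2 other peroxisomal genes, and DESeq2 1220 and 10 members. Leaving out 1 library at a time gave 2101 to 3634 genes, 11 to 19 members and 15 to 22 other peroxisomal genes for the siRNA, 310 to 2067, 5 to 23 and 6 to 23 for Cre virus, and 765 to 2647, 9 to 17 and 3 to 16 for the third comparison.

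Uncalled members whose sign turned were Ech1 for the siRNA under upper-quartile (-0.01172) and total scaling (-0.01835), and Acot4 in the third comparison by edgeR (-0.03834) and DESeq2 (-0.03118). Leaving out 1 library turned the sign, for the siRNA, of Pex7 (-0.1257 to 0.068), Acaa1a (-0.01486 to 0.09147), Ech1 (-0.003798 to 0.01817), Pecr (-0.07772 to 0.046), Crot (-0.1604 to 0.04021), Acot4 (-0.05143 to 0.6416) and Cat (-0.0001063 to 0.09008); for Cre virus, of Far1 (-0.01318 to 0.06071); and in the third comparison, of Pex16 (-0.1439 to 0.1047), Pex13 (-0.01855 to 0.1215), Pex14 (-0.08832 to 0.07703), Pex26 (-0.06427 to 0.1421), Abcd2 (-0.0571 to 0.09193), Acaa1b (-0.01264 to 0.04837) and Acot4 (-0.3299 to 0.363). The groups share replicate numbers, but deviations of same-numbered libraries correlated at 0.0187, -0.042 and -0.0373 over 14211 genes. These values show no strong shared deviation, but they cannot settle whether the libraries were made in pairs. With a replicate block, 3412, 1304 and 2214 genes, 19, 18 and 16 members and 21, 19 and 14 other peroxisomal genes were called. With 2 libraries a group, small changes in genes with low counts such as Acot4, Pecr, Acot8 and Pex26 were not detectable.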
